A study of Mus musculus with 14 samples.

Results

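Fatty acid oxidation and ketone body metabolism were followed in mouse liver through 38 genes, named in a fixed list and matched by gene symbol among the 43548 rows of the deposited expression table. The mice were of the C57BL6 strain with a floxed Cul3 gene, which encodes a scaffold of ubiquitin ligases, and all 4 groups carry the floxed allele. Feeding was with control diet (CD) or with Western diet (WD), for 13 weeks before and 5 weeks after injection of an adeno-associated virus (AAV) that uses the TBG promoter, which is active in hepatocytes. Injection with AAV-TBG-Cre, which deletes Cul3 (KO), or with AAV-TBG-Null, which lacks Cre (WT), gave 3 libraries of WT on CD, 3 of KO on CD, 4 of WT on WD and 4 of KO on WD. The promoter directs the deletion to hepatocytes, while RNA was taken from liver with its other cell types. The labels do not state the age of the mice. Each value is an FPKM, a read count scaled by transcript length and by library size, from tags near the 3′ end of transcripts.

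Hepatocytes take up fatty acids, join them to coenzyme A, carry long chains into mitochondria as carnitine esters and shorten them there by β-oxidation, while peroxisomes shorten very long and branched chains. The electrons of the first mitochondrial step pass through the electron transfer flavoprotein to the respiratory chain. During fasting much of the acetyl-CoA is turned into ketone bodies, which other tissues burn, and the nuclear receptor PPARα, encoded by Ppara, switches on many of these genes in liver.

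The libraries summed to 443818 to 523079 FPKM each, and 8600 to 9970 genes reached 1 FPKM. The table holds no read totals, so the depth is unknown. The value that 1 read would have gives a rough 3600000 to 11000000 reads per library. On CD this was 9379000, 8575000 and 10630000 in WT and 6985000, 5424000 and 3602000 in KO, without overlap. The part of depth in the KO changes on CD was not tested. Correlations of log2 values between libraries ran from 0.915 to 0.974. By the genes with very low values that they share, which is a technical mark, the libraries fell into 2 sets. Set 1 held all WT libraries on CD (numbered 1, 3 and 4), libraries 3 and 4 of WT on WD, and libraries 1, 2 and 4 of KO on WD. Set 2 held the KO libraries on CD (1, 2 and 3), libraries 1 and 2 of WT on WD, and library 3 of KO on WD. On CD the set and the genotype therefore cannot be told apart. Each call among the 38 genes is given from a fit of the groups alone and from a fit that also has a term for the set. That term is estimated from the WD libraries alone, where each genotype has both sets, and is taken to be the same on CD. A KO change on CD can thus lose its call with the set at nearly the same size, as that of Oxct1 does below. Summed FPKM of 10 hepatocyte markers was 15742 to 18533 in WT on CD, 25050 to 27331 in KO on CD, 17312 to 26111 in WT on WD and 17949 to 22286 in KO on WD. The sums of the KO libraries on CD thus lay above those of WT on CD. Of the markers, Apoc3 (mean 5990 FPKM in WT and 11279 in KO) and Ambp rose there and Tat fell. By gene, the median log2 change of the 10 markers on CD was 0.23, beside 0.18 over all genes. With a term for the set it was −0.13, beside 0.20. The part of this shift in the KO changes on CD was not tested. Cul3 itself stood at 23.9 to 29.5 FPKM in WT on CD, 11.3 to 18.3 in KO on CD, 7.46 to 25.9 in WT on WD and 18.5 to 26.6 in KO on WD. A 3′ tag can lie outside the deleted part, so these values check nothing about the deletion.

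Promoters of the genes are shown first, because PPARα with its partner RXR binds a direct repeat of the hexamer AGGTCA with 1 base between its copies (DR1). RefSeq gave promoters on GRCm38.p6 for 33 of the 38 genes (36 windows, each from 250 bases before to 50 after a start). Both strands were searched for AGGTCANAGGTCA with at most 2 mismatches at its 12 fixed bases. Fabp1, Cd36 and Etfa, 3 genes on which results below turn, have such a match, marked in capitals, at chr6:71199629-71199928 (+ strand), chr5:17835847-17836146 (− strand) and chr9:55512194-55512493 (− strand).
Fabp1: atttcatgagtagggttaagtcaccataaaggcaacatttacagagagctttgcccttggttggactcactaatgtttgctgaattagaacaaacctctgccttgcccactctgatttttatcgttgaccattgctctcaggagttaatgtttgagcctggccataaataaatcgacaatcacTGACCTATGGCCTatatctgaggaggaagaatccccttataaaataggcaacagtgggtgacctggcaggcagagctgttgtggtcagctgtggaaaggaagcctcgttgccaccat
Cd36: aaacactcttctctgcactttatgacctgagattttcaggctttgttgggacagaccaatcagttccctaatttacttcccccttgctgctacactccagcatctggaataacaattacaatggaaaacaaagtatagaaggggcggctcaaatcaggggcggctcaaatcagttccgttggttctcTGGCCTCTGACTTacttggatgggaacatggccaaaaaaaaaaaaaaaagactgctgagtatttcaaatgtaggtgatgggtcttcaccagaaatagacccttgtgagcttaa
Etfa: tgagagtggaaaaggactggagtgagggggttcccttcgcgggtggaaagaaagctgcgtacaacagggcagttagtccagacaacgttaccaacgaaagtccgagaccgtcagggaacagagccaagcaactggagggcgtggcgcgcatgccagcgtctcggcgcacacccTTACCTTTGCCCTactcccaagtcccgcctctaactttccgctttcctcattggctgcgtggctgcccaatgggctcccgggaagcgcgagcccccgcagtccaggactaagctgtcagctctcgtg
The matches of these 3 promoters lie on the strand opposite to the gene, at bases −67 to −55 of Fabp1, −63 to −51 of Cd36 and −77 to −65 of Etfa, counted from the start. The match of Fabp1 has 1 mismatch and the others have 2. The remaining matches were AGGTGAAAGGTCG in Slc25a20 and TGACCTTTGGCCG in Acot4. In all, 5 of 36 windows (13.9%) held a match, against 1268 of the 32851 promoters in the table (3.86%). With at most 1 mismatch it was 1 window (2.78%) against 0.554% of all promoters. These are letter matches, and binding was not measured. The genes with a match did not move alike below. On WD Cd36 rose in KO, and Fabp1, Etfa, Slc25a20 and Acot4 did not pass the test. On CD Fabp1 and Etfa fell in KO with groups alone and did not pass with the set as a term.

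Log2(FPKM + 1) was tested with limma over the 10870 genes that reached 1 FPKM in 3 or more libraries, and a gene is said to rise or fall at an adjusted p under 0.05. Of the 38 genes 35 were tested. Acot1, Acot3 and Pdk4 were too low: Acot1 reached at most 1.13 FPKM in any library, Acot3 at most 1.45 and Pdk4, which encodes a kinase that spares glucose, at most 0.847. In KO against WT on CD 4 of the 35 rose (11.4%, against 11.7% of all tested genes) and 5 fell (14.3%, against 3.35%). In KO against WT on WD 2 rose (5.71%, against 6.01%) and 4 fell (11.4%, against 1%). WD against CD raised 1 gene in WT, where 1.3% of all genes were called in either direction, and 3 in KO, where 6.38% were called. The KO effect differed between diets for 1 gene, with 0.34% of all genes called. Once the fit had a term for the set, the calls among the 35 were 0 for KO on CD (1.16% of all genes called), 6 for KO on WD (7.75%), 0 for WD in WT (0.699%), 1 for WD in KO (0.35%) and 0 for the difference between diets (0.0184%). At an unadjusted p under 0.05 the counts with the set were 8, 13, 11, 7 and 5, against 15, 11, 12, 16 and 19 with groups alone. A further setting bears on 3 of the 6 calls on WD: with KO on WD 3 and 4 exchanged between the sets, which 1 gene's placeholder value would do, Ppara, Cpt1a and Oxct1 did not pass (adjusted p = 0.0886, 0.057 and 0.068), while Acsl1, Cd36 and Pex11a did. The comparisons share libraries: each group serves in a KO effect, in a diet effect and in the difference between diets.

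**Figure D1:**
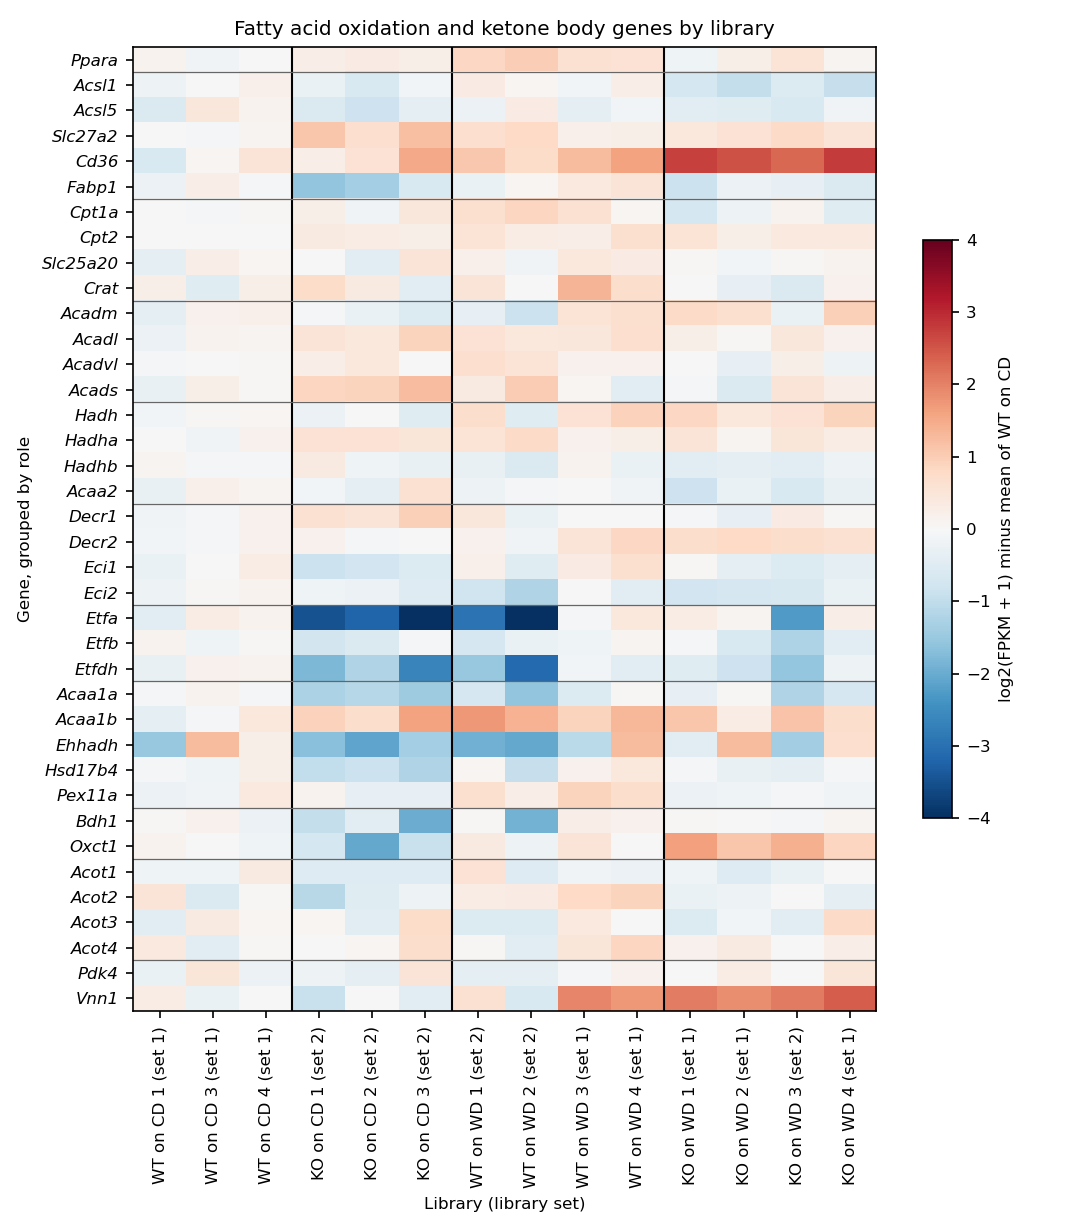
Each row is a gene and each column a library, with log2(FPKM + 1) minus its mean in WT on CD as colour (limited to 4 in either direction) and the library set in brackets. Cd36 and Vnn1 are high in KO on WD, and Etfa and Etfdh are low in the set 2 libraries of every group that has them.

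The median log2 change of the 35 genes was −0.16 for KO on CD, where the median of all genes was 0.18, and −0.14 on WD, where it was 0.23. The changes below are to be read against those shifts of all genes. When the libraries were centred on their medians, the KO calls on CD were 1 rise and 7 falls in place of 4 and 5, and on WD 1 rise and 7 falls in place of 2 and 4. Quantile normalization gave 1 rise and 6 falls on CD and 1 rise and 7 falls on WD. The calls over all 10870 genes also moved toward falls. With groups alone they were 1269 rises and 364 falls on CD, and 653 and 109 on WD. Centring gave 713 and 585 on CD, and 227 and 230 on WD. With quantile normalization they were 618 and 506 on CD, and 274 and 246 on WD.

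Ppara, the receptor gene on chromosome 15 (mm10, 85734983 to 85802819, + strand), fell in KO livers on WD. WT on WD libraries held 257, 287, 221 and 214 FPKM, and KO on WD libraries held 128, 169, 209.7 and 155, so that every KO value lay below every WT value. The means were 245 ± 33.7 and 165 ± 33.9 FPKM (SD, n = 4 each), a log2 change of −0.57 ± 0.16 (SE; limma adjusted p = 0.048; 0.038 with the set as a term). On CD the values were 158, 132 and 144 in WT and 174, 182 and 170.0 in KO, all higher in KO, a log2 difference of 0.28 that did not pass (adjusted p = 0.307) and was −0.11 with the set as a term. The WT values on WD were above those on CD by 0.75 on the log2 scale (adjusted p = 0.056), and the KO effect on WD minus that on CD was −0.86 (adjusted p = 0.074). The call on WD ended in 6 of 8 fits that left out 1 library, with the highest adjusted p of 0.122 without KO on WD 1.

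Acyl-CoA synthetase 1, the transporter CD36 and the other genes of uptake and activation followed different courses. Acsl1, which joins coenzyme A to long-chain fatty acids, fell in KO on WD. It held 114, 95.4, 84.9 and 109 FPKM in WT on WD and 55.1, 47.0, 62.4 and 47.2 in KO on WD, with no overlap. The mean was 101 ± 13.1 FPKM in WT and 52.9 ± 7.35 in KO (SD, n = 4 each), a log2 change of −0.92 ± 0.17 (adjusted p = 0.00479; 0.00613 with the set), and the call held in every alternative run, with a highest adjusted p of 0.033. On CD Acsl1 held 79.4, 90.3 and 105 in WT and 74.9, 59.5 and 85.0 in KO, where the groups overlap (log2 difference −0.33, adjusted p = 0.25). The KO effect on WD minus that on CD was −0.59 and did not pass (adjusted p = 0.16).

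Cd36, whose protein takes up long-chain fatty acids in several cell types, rose in KO on WD and in KO livers from CD to WD. Its values were 5.93, 10.3 and 14.05 FPKM in WT on CD, 11.6, 14.7 and 29.0 in KO on CD, 21.1, 16.4, 24.3 and 31.0 in WT on WD, and 68.9, 60.1, 50.7 and 71.6 in KO on WD. The KO on WD libraries were the 4 highest of the 14. KO on WD (62.8 ± 9.44, SD, n = 4) exceeded WT on WD (23.2 ± 6.13, n = 4) by 1.42 ± 0.30 on the log2 scale (adjusted p = 0.0114; 0.0156 with the set). That call held in all 8 fits without 1 library and ended in a fit of the 8 libraries of set 1 alone (adjusted p = 0.074). In KO livers the change from CD to WD was 1.80 ± 0.32 (adjusted p = 0.0116), which did not pass with the set as a term (1.45, adjusted p = 0.131) and ended without KO on CD 1 (adjusted p = 0.052). The KO effect was not shown to differ between diets (0.64, adjusted p = 0.38).

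Macrophages, endothelial cells and adipocytes also express Cd36, and whole liver was measured, so that more cells of a type and more RNA per cell cannot be told apart. The summed FPKM of 14 macrophage markers was 54.2 to 84.8 in WT on CD, 107 to 232 in KO on CD, 86.4 to 171 in WT on WD and 189.9 to 341 in KO on WD. Of the 10 tested, Clec4f, C1qc, Vsig4 and Cd68 rose in KO on WD. Summed FPKM of 8 endothelial markers was 66.3 to 69.6 in WT on CD, 97.8 to 142 in KO on CD, 65.2 to 94.2 in WT on WD and 86.4 to 124 in KO on WD. Of 5 adipocyte markers, Plin1, Lep and Retn were listed at 0 in every library, and the sum was at most 2.496 FPKM. Cfd, the 1 tested, fell in KO on WD (−1.22, limma adjusted p = 0.0106) and reached 1 FPKM only in WT on WD. The macrophage sums were higher in KO on WD than in WT on WD, without overlap, and their range was higher than in KO on CD, with overlap. The ranges of the endothelial sum overlapped in both comparisons, and that of KO on WD was not above that of KO on CD. The part of these cells in the Cd36 result was not tested.

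Slc27a2, a very-long-chain acyl-CoA synthetase and transporter, rose in KO on CD when groups alone were fitted. It held 98.4, 95.5 and 108 FPKM in the WT libraries and 219, 163 and 230.5 in the KO libraries, every KO library being higher, a log2 change of 0.997 ± 0.20 (adjusted p = 0.00743) that held in all 6 fits without 1 library. With the set it was 0.59 (adjusted p = 0.22). On WD the values were 162, 175, 116 and 119 in WT and 135, 149, 169.9 and 143 in KO, which overlap, and within WT on WD the 2 libraries of set 2 were the higher ones. Over all 14 libraries Slc27a2 divided by set, with 95.5 to 149 FPKM in set 1 and 162 to 230.5 in set 2. Fabp1, the main fatty acid binding protein of the hepatocyte, fell in KO on CD, from 143, 206 and 164 FPKM to 55.6, 66.0 and 109.9. Its groups did not overlap, and the log2 change was −1.18 ± 0.28 (adjusted p = 0.0155), which was −0.95 with the set (adjusted p = 0.267). The call ended without WT on CD 3 (adjusted p = 0.067) and without KO on CD 1 (adjusted p = 0.057). On WD Fabp1 held 139, 177, 223 and 242 in WT and 93.8, 145, 134 and 112 in KO, which overlap (log2 difference −0.67, adjusted p = 0.11). Acsl5, another acyl-CoA synthetase, held 0.470 to 2.503 FPKM in all libraries and passed no test.

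**Figure D2:**
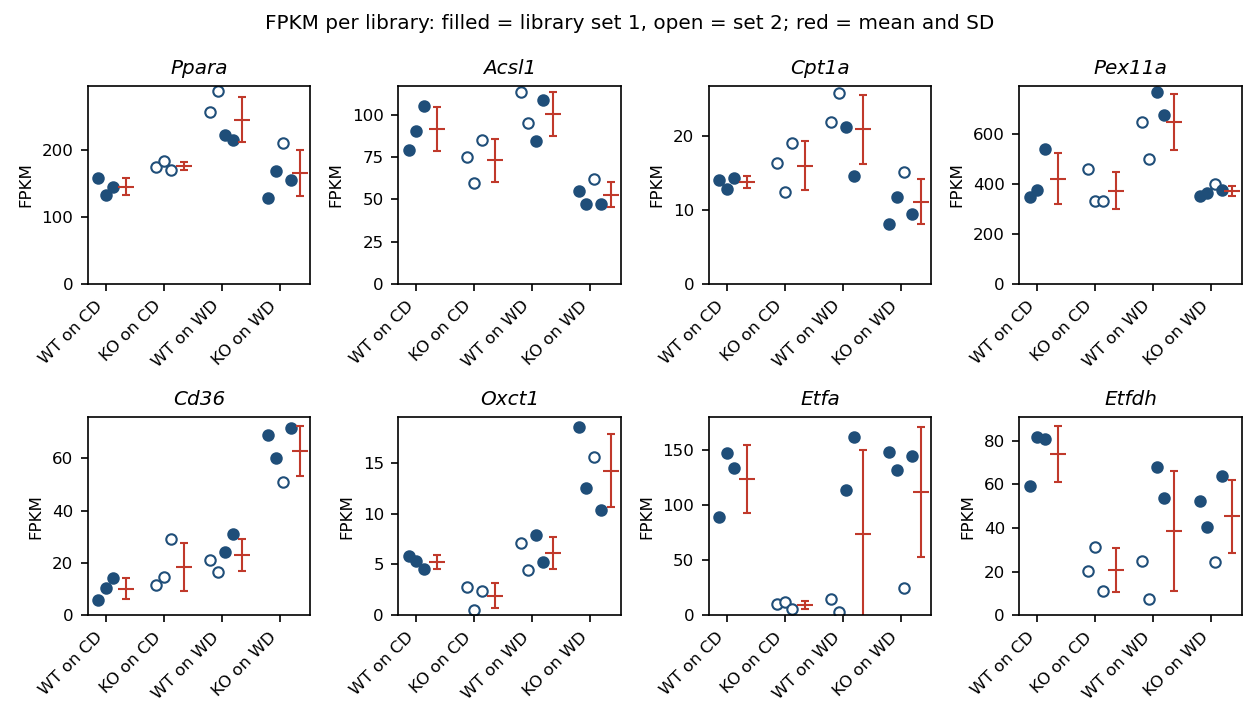
FPKM of 8 genes (vertical axes, from 0) in each library by group, with filled points for library set 1, open points for set 2 and the group mean ± SD in red (the bar of Etfa in WT on WD is cut at 0). KO on WD lies below WT on WD for Ppara, Acsl1 and Pex11a and above it for Cd36 and Oxct1, whereas Etfa and Etfdh divide by set within WT on WD.

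Of the 4 genes of the carnitine shuttle only Cpt1a was called, and in 1 comparison. Cpt1a encodes the rate-limiting acyltransferase of the outer mitochondrial membrane. It fell in KO on WD, where WT libraries held 21.9, 25.9, 21.3 and 14.6 FPKM and KO libraries 8.12, 11.7, 15.1 and 9.48. The highest KO library, KO on WD 3, lay just above the lowest WT library. The mean was 20.9 ± 4.69 in WT and 11.1 ± 3.06 in KO (SD, n = 4 each), a log2 change of −0.86 ± 0.22 (adjusted p = 0.0296; 0.0272 with the set). The call ended in 6 of 8 fits without 1 library, with the highest adjusted p of 0.090 without KO on WD 4. On CD the values were 13.98, 12.9 and 14.4 in WT and 16.4, 12.4 and 19.0 in KO, which overlap. Cpt2, the acyltransferase of the inner membrane, held 129 to 204 FPKM, the carrier Slc25a20 4.22 to 9.10, and the acetyltransferase Crat 1.16 to 7.15, and none of the 3 was called in any comparison.

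Among the 4 mitochondrial acyl-CoA dehydrogenases, which catalyse the first dehydrogenation of β-oxidation for chains of different length, Acadl alone was called. It held 108, 139.8 and 136 FPKM in WT on CD and 182, 172 and 237 in KO on CD, with no overlap, a log2 rise of 0.61 ± 0.17 (adjusted p = 0.0331). With the set it was 0.52 (adjusted p = 0.333), and the call ended in 5 of 6 fits without 1 library (highest adjusted p 0.132, without KO on CD 3). On WD it held 192, 172, 174 and 205 in WT and 149, 132, 173 and 143 in KO (log2 difference −0.31, adjusted p = 0.23). Acads, for short chains, stood at 21.7 to 32.4 FPKM in WT on CD and 50.5 to 65.9 in KO on CD without passing (adjusted p = 0.063). Over all 14 libraries Acads divided by set, with 17.8 to 33.2 FPKM in set 1 and 35.0 to 65.9 in set 2. Acadvl, for very long chains, ranged from 719 to 1450 FPKM and passed no test. Acadm, for medium chains, passed none of the 5 comparisons, and its difference between the sets is given below.

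The 4 genes of the later mitochondrial steps passed no test in any comparison. Hadha and Hadhb encode the trifunctional protein, which carries 3 of the activities for long chains. Hadha held 70.9 to 87.3 FPKM in WT on CD and 109 to 118 in KO on CD (log2 difference 0.55, adjusted p = 0.062; 0.72 with the set), and Hadhb held 6.45 to 13.2 in all libraries. Hadh, the dehydrogenase for shorter chains, ranged from 138 to 368 FPKM and the thiolase gene Acaa2 from 7.06 to 20.9.

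Of the 4 auxiliary enzyme genes for unsaturated fatty acids, Decr1, the mitochondrial dienoyl-CoA reductase, rose in KO on CD. It held 71.7, 77.3 and 89.5 FPKM in the WT libraries and 120.3, 113 and 153 in the KO libraries, a log2 change of 0.68 ± 0.22 with an adjusted p of 0.0495. The KO libraries were all higher, but the call ended in each of the 6 fits without 1 library (highest adjusted p 0.174, without KO on CD 3) and with the set (0.44, adjusted p = 0.521). On WD its values were 109.8, 66.3, 79.8 and 80.3 in WT and 74.5, 63.3, 99.9 and 82.4 in KO, which overlap. The peroxisomal reductase Decr2 (49.8 to 98.4 FPKM) and the isomerases Eci1 (54.9 to 157) and Eci2 (16.2 to 43.1) were not called.

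Etfa, the α subunit of the electron transfer flavoprotein on chromosome 9 (mm10, 55454508 to 55512243, − strand), had the largest difference between the library sets among the 35 tested genes. WT on CD libraries held 89.2, 148 and 134 FPKM, and KO on CD libraries 9.79, 12.3 and 5.24. WT on WD libraries 1 and 2, of set 2, held 14.7 and 3.11, while 3 and 4, of set 1, held 114 and 162. KO on WD libraries held 148, 131 and 144 in set 1 and 24.3 in the library of set 2. The 6 libraries of set 2 were thus the 6 lowest, in both genotypes. The KO effect on CD was −3.66 ± 1.1 on the log2 scale with groups alone (adjusted p = 0.0411) and −0.26 with the set as a term (adjusted p = 0.907). That call also ended in each of the 6 fits without 1 library (highest adjusted p 0.132, without KO on CD 3).

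The set itself, as a term, gave 3 calls among the 35 genes, all lower in set 2 (8.57%, against 6.97% of all genes called in either direction). Of all 10870 genes, 120 were called higher and 638 lower in set 2. These calls depend on the assignment of libraries: with KO on WD 3 and 4 exchanged, 1 gene was called higher and 2 lower. Etfa was lower in set 2 by a log2 change of −3.40 (adjusted p = 0.001). Etfdh, the dehydrogenase that passes the electrons of the flavoprotein to ubiquinone, was at −1.62 (adjusted p = 0.028), with 7.60 to 31.1 FPKM in set 2 and 40.6 to 81.9 in set 1. Acadm was at −1.13 (adjusted p = 0.0037), with 49.9 to 85.3 FPKM in set 2 and 68.9 to 177 in set 1. The β subunit gene Etfb ranged from 452 to 1157 FPKM and was not called by set or by group (set difference −0.62, adjusted p = 0.079).

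**Figure D3:**
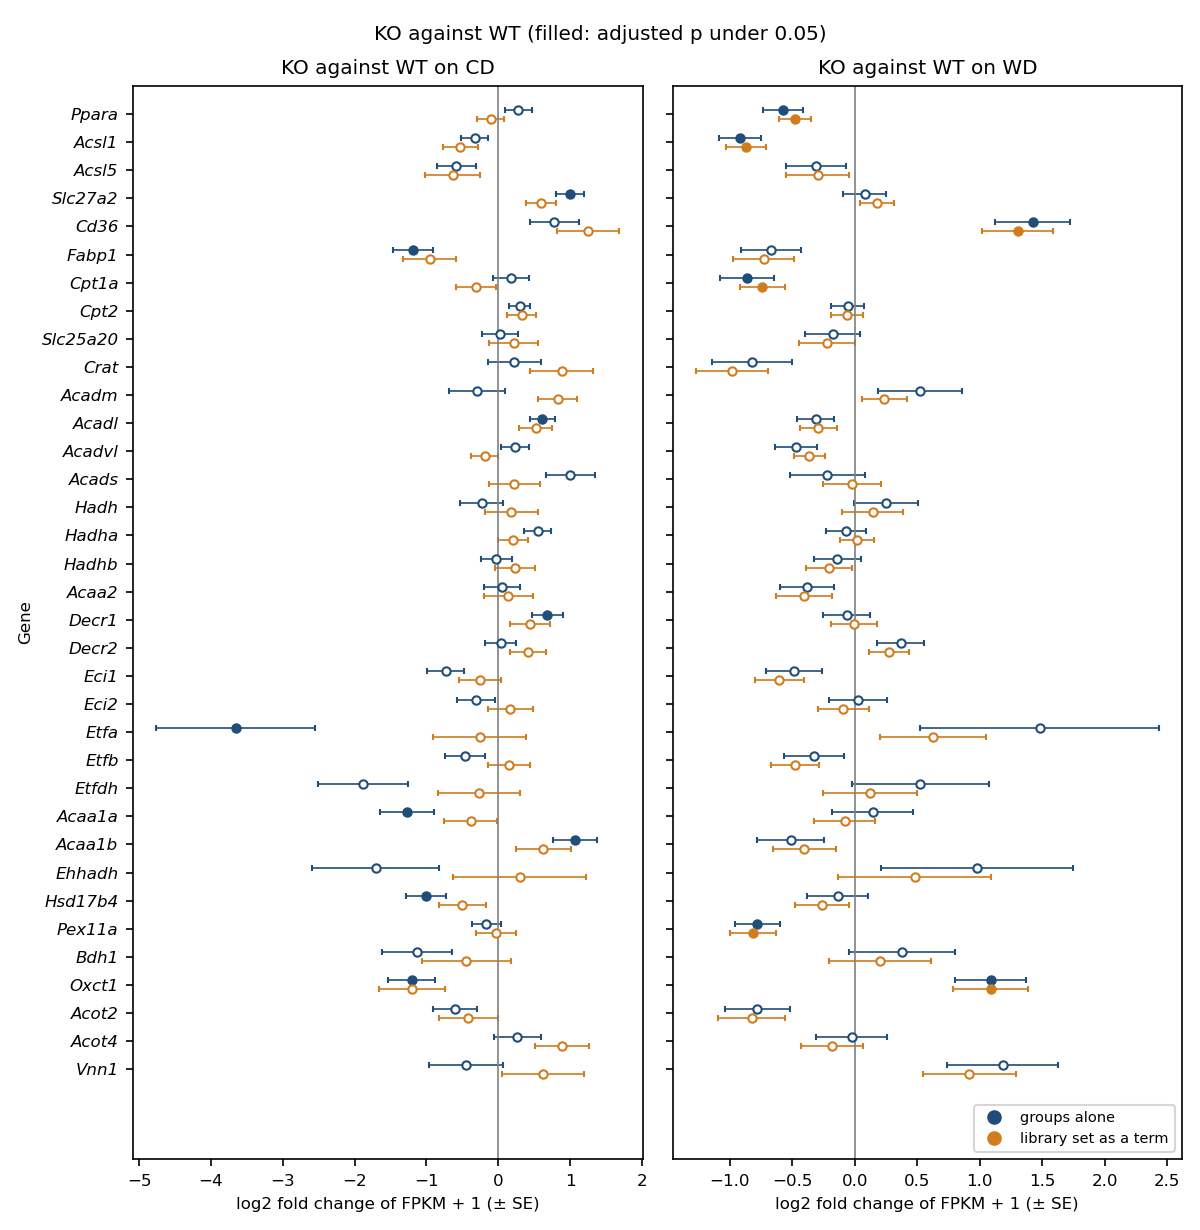
Log2 fold changes of FPKM + 1 ± SE for KO against WT on CD (left) and on WD (right) for the 35 tested genes, from the fit of groups alone (blue) and from that with a term for the set (orange), filled where the adjusted p is under 0.05. On CD no orange point is filled, and on WD the same 6 genes are filled in both fits.

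Among the 5 peroxisomal genes, Pex11a, whose protein takes part in the division of peroxisomes, fell in KO on WD. WT on WD libraries held 648, 499.9, 769.6 and 677 FPKM and KO on WD libraries 353, 366, 400.7 and 374, all below the lowest WT library. The mean was 649 ± 112 in WT and 373 ± 20.1 in KO (SD, n = 4 each), a log2 change of −0.78 ± 0.18 (adjusted p = 0.0199; 0.0177 with the set). The call also held in the set 1 libraries alone. It ended without WT on WD 1, KO on WD 1 or KO on WD 4, with the highest adjusted p of 0.0525 without WT on WD 1. On CD the values were 349, 378 and 538 in WT and 459, 332 and 330.4 in KO (log2 difference −0.16, adjusted p = 0.61), and the KO effects were not shown to differ between diets (−0.62, adjusted p = 0.17).

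Acaa1b and Acaa1a encode near-identical peroxisomal thiolases, so that the split of reads between them is uncertain. Acaa1b held 537, 685 and 939 FPKM in WT on CD, 1316, 1142 and 2144 in KO on CD, 2331, 1850.4, 1288 and 1745 in WT on WD, and 1528, 864, 1533 and 1149.6 in KO on WD. It rose in KO on CD (1.07 ± 0.31, adjusted p = 0.0334) and from CD to WD in WT (1.33 ± 0.29, adjusted p = 0.0416), and in both its groups did not overlap. With the set the values were 0.63 (adjusted p = 0.503) and 1.11 (adjusted p = 0.136). The call on CD ended in 4 of 6 fits without 1 library (highest adjusted p 0.139, without KO on CD 3), and that for WD in 6 of 7 (0.173, without WT on CD 3). Acaa1a was low, at 2.63, 3.11 and 2.58 FPKM in WT on CD and 0.561, 0.717 and 0.406 in KO on CD, a log2 fall of −1.27 ± 0.37 (adjusted p = 0.0366) that was −0.39 with the set (adjusted p = 0.706) and ended in each of the 6 fits without 1 library (highest adjusted p 0.114, without KO on CD 3). On WD Acaa1a held 1.38, 0.262, 1.59 and 2.92 in WT and 2.01, 2.92, 0.6245 and 1.36 in KO. The sum of both genes gave 1.07 for KO on CD (adjusted p = 0.0337, and 0.505 with the set) and 1.33 for WD in WT (adjusted p = 0.0421, and 0.136 with the set).

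Hsd17b4, the multifunctional enzyme of the middle peroxisomal steps, fell in KO on CD from 61.3, 57.0 and 74.5 FPKM to 31.9, 34.9 and 27.3, with no overlap. The log2 change was −1.01 ± 0.28 (adjusted p = 0.0303), and it was −0.50 with the set (adjusted p = 0.535). The call ended in 5 of 6 fits without 1 library (highest adjusted p 0.108, without KO on CD 3). On WD it held 67.4, 32.9, 72.5 and 85.7 in WT and 61.4, 51.7, 49.5 and 60.0 in KO, where WT on WD 2, of set 2, was the lowest. Ehhadh, a bifunctional enzyme of the same pathway, varied from 2.04 to 30.6 FPKM, with 2.04 to 4.15 in KO on CD and 3.59 to 30.6 in WT on CD, and passed no test (log2 difference −1.71, adjusted p = 0.20). Over both diets and genotypes it held 2.04 to 4.15 FPKM in set 2 and 3.59 to 30.6 in set 1.

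Oxct1, on chromosome 15 (mm10, 4026383 to 4155344, + strand), was called in 4 of the 5 comparisons. It encodes the transferase that lets tissues burn ketone bodies, an enzyme that hepatocytes hold at very low levels. Its values were 5.88, 5.31 and 4.57 FPKM in WT on CD, 2.82, 0.521 and 2.39 in KO on CD, 7.07, 4.46, 7.85 and 5.20 in WT on WD, and 18.6, 12.5, 15.6 and 10.3 in KO on WD. KO libraries were all below WT on CD and all above WT on WD. The KO effect was −1.21 ± 0.33 on CD (adjusted p = 0.0277). It was 1.09 ± 0.28 on WD (adjusted p = 0.0357), a difference between diets of 2.29 ± 0.43 (adjusted p = 0.044). In KO livers the rise from CD to WD, from 1.91 ± 1.22 (SD, n = 3) to 14.2 ± 3.60 FPKM (n = 4), was 2.47 ± 0.31 (adjusted p = 0.00143). The difference between the sets was 0.00 on the log2 scale.

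With the set as a term the Oxct1 changes on WD (1.09, adjusted p = 0.0447) and from CD to WD in KO (2.46, adjusted p = 0.0185) passed, while those on CD (−1.20, adjusted p = 0.256) and between diets (2.29, adjusted p = 0.527) did not. The call on WD ended under median centring (adjusted p = 0.147) and quantile normalization (0.13). Without 1 library it ended in 6 of 8 fits (highest adjusted p 0.0935, without KO on WD 1), the call on CD in 4 of 6 (0.081, without WT on CD 3) and that of the difference in 10 of 14 (0.122, without WT on CD 3). The rise from CD to WD in KO held in all 7, though not within set 2 alone (adjusted p = 0.415). Bdh1, which interconverts the ketone bodies acetoacetate and β-hydroxybutyrate, held 26.0 to 34.7 FPKM in WT on CD and 7.01 to 22.0 in KO on CD and passed no test (−1.13, adjusted p = 0.12).

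**Figure D4:**
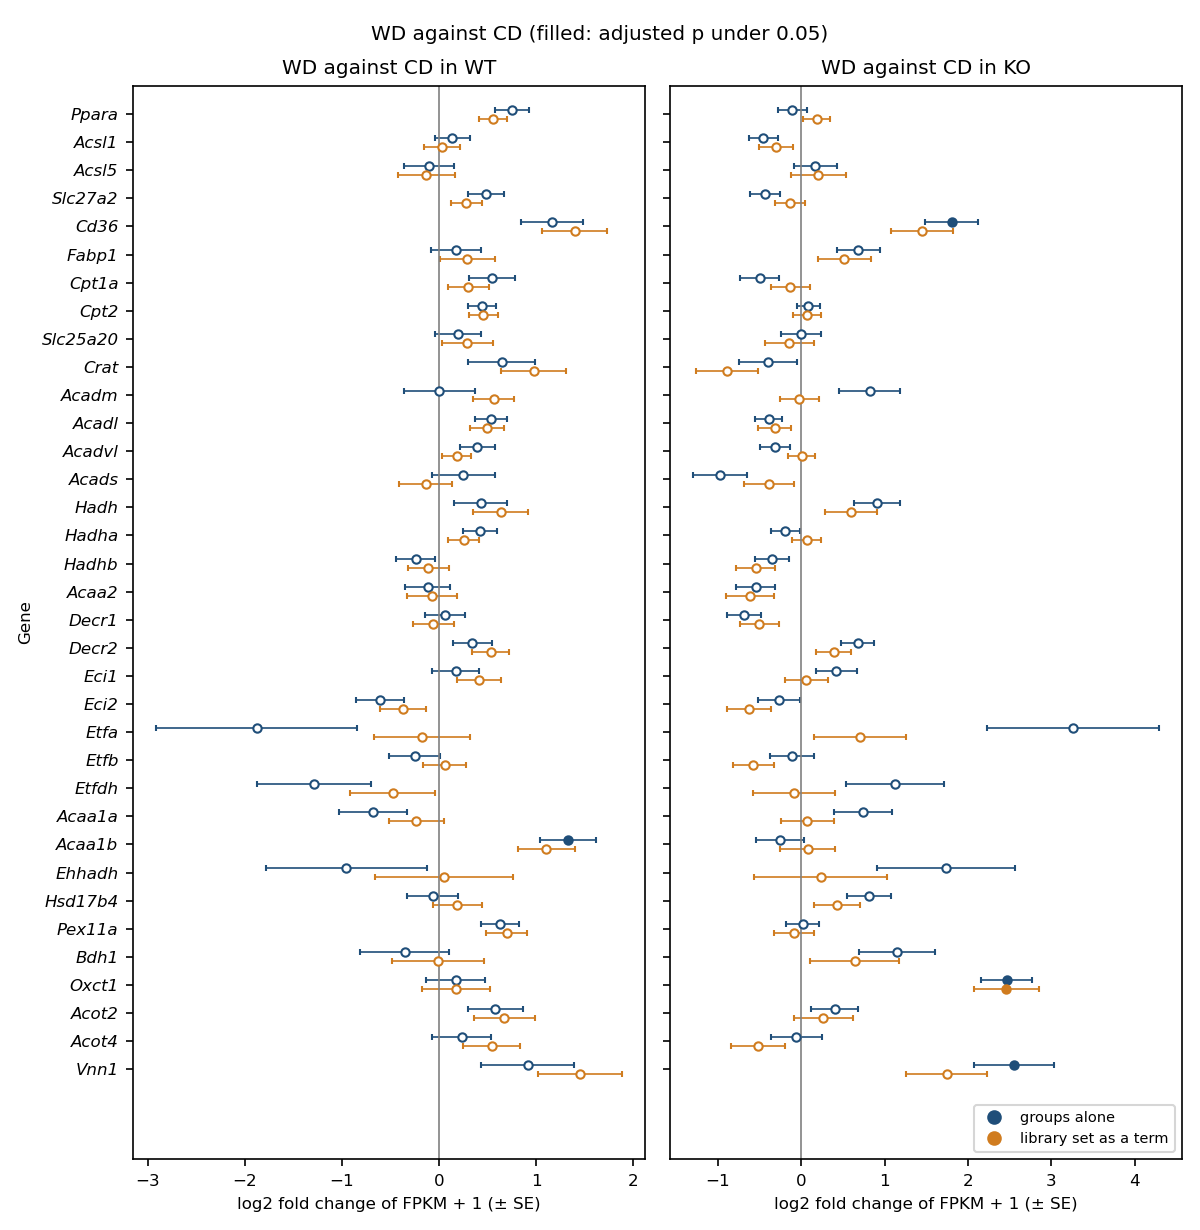
Log2 fold changes of FPKM + 1 ± SE for WD against CD in WT (left) and in KO (right) for the 35 tested genes, from the fit of groups alone (blue) and from that with a term for the set (orange), filled where the adjusted p is under 0.05. In WT Acaa1b is filled with groups alone, and in KO Cd36, Oxct1 and Vnn1 are, of which Oxct1 is filled in both fits.

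Vnn1, a pantetheinase gene that PPARα activates in mouse liver, rose in KO livers from CD to WD. It held 3.66, 2.16 and 2.76 FPKM in WT on CD, 1.05, 2.76 and 1.82 in KO on CD, 4.77, 1.47, 13.7 and 11.7 in WT on WD, and 14.6, 12.8, 15.0 and 19.5 in KO on WD. KO on WD was above KO on CD without overlap, by 2.55 ± 0.48 on the log2 scale (adjusted p = 0.0144), and WT on WD divided by set. With the set the rise was 1.74 (adjusted p = 0.149), and it ended without KO on CD 1 (adjusted p = 0.061). Of the acyl-CoA thioesterases, which split acyl-CoA back to free acids and lie in a cluster of near-identical copies, Acot2 held 1.31 to 8.38 FPKM and Acot4 1.82 to 6.09, and neither passed a test. Their family sum (Acot1 to Acot6) passed none either.

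Genes of the same pathways outside the 38 were read from 6 further lists. Of all tested genes, 11.7% rose and 3.35% fell in KO on CD, and 6.01% rose and 1% fell on WD. For WD against CD 1.3% were called in WT and 6.38% in KO. The median log2 change for KO on WD was −0.37 over 13 tested PPARα targets, 0.27 over 17 mitochondrial genes, 0.13 over 21 peroxisomal genes, 0.14 over 6 ketone body genes, 0.04 over 11 synthetases, transporters, thioesterases and binding proteins, and 0.39 over 17 regulators, beside 0.23 over all genes. Of the 13 tested PPARα targets, 1 rose and 1 fell in KO on WD: Cyp4a14, a fatty acid ω-hydroxylase, rose from 17.9 ± 13.9 to 96.7 ± 26.8 FPKM (2.60, adjusted p = 0.0113), and Mgll, monoglyceride lipase, fell from 128 ± 37.3 to 54.4 ± 13.4 (−1.20, adjusted p = 0.00806). On CD Pnpla2, a triglyceride lipase, rose (0.98, adjusted p = 0.0173), and Aldh3a2, a fatty aldehyde dehydrogenase, fell (−2.87, adjusted p = 0.0446). WD raised 2 in WT, Mgll (1.36, adjusted p = 0.0228) and the lipid droplet gene Cidec (3.58, adjusted p = 0.00555), and 0 in KO. With the set Cidec passed (3.36, adjusted p = 0.0303) and Mgll did not (1.15, adjusted p = 0.0678).

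Of 21 other peroxisomal genes 4 rose and 1 fell in KO on CD, and 1 rose and 3 fell on WD. Among all tested genes 11.7% rose and 3.35% fell on CD, and 6.01% rose and 1% fell on WD. Acox2, the oxidase of branched chains and bile acid precursors, rose by 1.41 on CD (adjusted p = 0.00161) and by 0.75 on WD (adjusted p = 0.0289). Nudt7, a hydrolase of coenzyme A, was at −3.29 on CD (adjusted p = 0.000377) and at −1.51 on WD (adjusted p = 0.0222). Nudt7 on CD passed with the set as well (−2.61, adjusted p = 0.0239). Scp2, which takes part in peroxisomal lipid handling, and Phyh, of α-oxidation, fell on WD (−0.99, adjusted p = 0.0192, and −0.64, adjusted p = 0.0498). Crot, the peroxisomal carnitine octanoyltransferase, rose with WD in KO livers with groups alone (0.63, adjusted p = 0.0443) and did not pass with the set (0.55, adjusted p = 0.269).

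Of 17 regulators 4 rose and 1 fell in KO on CD, and 4 rose on WD: the coactivator Ppargc1b (1.28, adjusted p = 0.000837), the deacetylase Sirt3 (0.64, adjusted p = 0.022), the AMP kinase subunit Prkaa2 (1.06, adjusted p = 0.022) and the kinase Pdk2 (0.71, adjusted p = 0.0397). All 4 passed with the set as well. The shares of all tested genes were 11.7% higher and 3.35% lower on CD, and 6.01% higher and 1% lower on WD. Of 17 other mitochondrial genes, Acsm5, a medium-chain acyl-CoA synthetase, rose by 0.95 on CD (adjusted p = 0.0244) and by 1.16 on WD (adjusted p = 0.00559), and Acadsb fell on CD (−0.99, adjusted p = 0.0182). Of 11 other synthetases, transporters and binding proteins, 1 rose and 1 fell on CD, and Dbi, the acyl-CoA binding protein, fell on WD (−0.74, adjusted p = 0.0412). Of 6 other ketone body genes 0 were called by limma for KO on either diet with groups alone (3 on CD and 1 on WD had an unadjusted p under 0.05). Once the set had a term, Slc16a7, a monocarboxylate transporter, passed on WD (1.47, adjusted p = 0.0349). With groups alone, Acat1, which joins or splits acetoacetyl-CoA, rose from CD to WD in KO (2.097, adjusted p = 0.0421). That call was lost with the set (0.76, adjusted p = 0.295), and Acat1 was itself lower in set 2 (−1.79, adjusted p = 0.00102). With a term for the set, Nudt7 was the 1 call on CD across these lists, and the calls for KO on WD named here all passed.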

How the data were processed

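Liver RNA of 14 libraries was read from the 3′ end with a stranded QuantSeq 3′ FWD kit, per the labels' protocols. The authors deposited 1 table of FPKM values, and the submitters' processing notes name Cufflinks and mm10. Neither aligner nor annotation is named there. Dividing a 3′ tag by transcript length makes FPKM unfit for comparing genes, so each gene is compared between libraries. Gene Yam1 held the placeholder 999999999 in some libraries and was left out.

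From the table, log2(FPKM + 1) was fitted in R 4.3.3 by limma 3.58.1 (moderated by eBayes with a trend, two-sided, 10 residual degrees of freedom), all 14 libraries and 1 mean per group, over the 10870 genes that reached 1 FPKM in 3 or more libraries. P-values were adjusted by Benjamini-Hochberg within a comparison, at 0.05. The pseudocount makes fold changes of low genes too small. The fit was tested on simulated data. The labels tie no library to an animal of its own, and p-values then measure only the spread between libraries, which may be technical.

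Library sets came from average-linkage clustering of how many sparse genes (above 0 in at most 8 libraries) shared 1 FPKM ratio (within 0.004 on the log2 scale). Pairs of libraries from different sets shared a median of 2.63%, pairs within set 1 7.08% and pairs within set 2 4.78%. The ranges overlapped, at 1.40 to 3.82% between sets, 3.01 to 11.84% within set 1 and 2.02 to 18.08% within set 2. Promoters are from RefSeq (GRCm38.p6) and gene positions from GENCODE M21 (mm10). Values in every library are given for Ppara and for each gene called in a comparison. For genes outside the 38, at most 4 called genes with the smallest p of a list are named. The genes and lists were chosen with earlier results of these data known. Alternatives were another pseudocount (0.1), no filter, quantile normalization, median centring, the library set, a replicate block, only the groups compared, and leaving out each library.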

Additional observations from a re-analysis of the deposited data

Results flagged for a closer look

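In a group of 4 libraries, 1 library was marked where it stood far from the other 3 on the log2 scale. Of 70 such groups examined, 2 were marked, and chance marks about 1 in 20. Etfa in KO on WD 3 stood at 24.3 FPKM, while the other 3 libraries of KO on WD held 131 to 148. KO on WD 3 is the library of set 2 in that group. Bdh1 in WT on WD 2 stood at 7.46 FPKM, while the other 3 libraries of WT on WD held 31.4 to 36.3. WT on WD 1 is of set 2 as well and held 31.4. Oxct1 was marked because the KO effect differed between diets in a test of the difference itself, by 2.29 on the log2 scale (limma adjusted p = 0.044; 0.527 with the library set as a term).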

How the results depend on the processing

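The 20 calls of single genes were followed through 313 alternative values. The direction was kept in all of them, and the threshold was passed in 159. The acyl-CoA synthetase Acsl1 on WD passed in every one. With the library set as a term 7 of 20 calls held, and the number of called genes was 0 for KO on CD (9 with groups alone), 6 for KO on WD (6), 0 for WD in WT (1), 1 for WD in KO (3) and 0 for the difference (1). With KO on WD 3 and 4 exchanged between sets, an alternative chosen after seeing the data, these numbers were 0, 3, 0, 1 and 0. Set 1 alone gave 2 for KO on WD, and, as alternatives also chosen after seeing the data, set 1 alone gave 1 for WD in WT, a gene other than Acaa1b, and set 2 alone gave 0 for WD in KO. Without the filter on low values KO on CD gave 3, WD in WT 0 and the difference 0. Median centring gave 0 for WD in WT and 0 for the difference, which was also 0 with quantile normalization and with the pseudocount of 0.1. The fit of only the groups compared gave 0 for WD in WT and 7 for WD in KO.

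The replicate numbers of the labels were not shown to pair libraries: same-numbered libraries correlated in their deviations by −0.297 to 0.158. A replicate block gave 3 for KO on CD, 4 for KO on WD, 0 for WD in WT, 2 for WD in KO and 0 for the difference.

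Leaving out 1 library gave 1 (without WT on CD 3) to 5 (without KO on CD 2) calls for KO on CD, with 2 or 3 for the other 4. For KO on WD it gave 2 (without WT on WD 1 or KO on WD 1) to 5, and 3 without KO on WD 2 or 4. For WD in WT it gave 0, or 1 without WT on WD 3. For WD in KO it gave 1 (without KO on CD 1) to 6 (without KO on WD 3), and for the difference 0 to 10, with 10 without WT on WD 4, 7 without KO on WD 3, 5 without WT on WD 3, 1 without KO on CD 1 and 0 otherwise. The causes of these moves were not tested. Depth limits the genes near 1 FPKM, such as Acaa1a.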
